A study of Homo sapiens with 16 samples.

Results

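The expression of 10 transcription factors that mark breast epithelial subtypes was examined in 2 estrogen receptor-negative breast cancer cell lines: ESR1, GATA3, FOXA1, FOXC1, SOX9, SOX10, ELF3, ELF5, GRHL2 and TP63. The set is a list of names that uses no measured value in its rule, although the list was drawn up with earlier results of these data known, and all 10 were found by Ensembl ID among the 18332 genes of the table. MDA-MB-231 and MDA-MB-468 are established human lines labelled ER negative. Flasks of either line were kept for 48 hours at a glucose concentration of 5 mM, called low glucose here, or of 25 mM, called high glucose, which the study used to mimic hyperglycemia. This gave 4 groups of 4 replicates and 16 libraries. The study's methods describe these media as serum free and say that cells were first conditioned in low glucose. Each arm is a single line, and the labels do not say whether the 4 flasks of a group came from separate cultures, so p-values measure the spread between these libraries, which may be technical. The paper reports that mannitol, added to the low-glucose control as an osmotic control, did not change proliferation or migration. No library with an osmotic control was analyzed here. In these expression data, 25 mM glucose and the higher osmolarity that comes with it therefore cannot be told apart. The methods also give different maintenance media for the lines, and line and maintenance medium cannot be told apart.

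In the mammary gland, hormone-sensing luminal cells, secretory luminal progenitors and basal cells are kept apart by different sets of DNA-binding proteins. ESR1 encodes the estrogen receptor, a ligand-activated factor. It works on chromatin opened by the forkhead protein FOXA1 and together with the zinc finger protein GATA3, and this trio defines luminal, hormone-responsive cancers. ELF5 is an ETS factor of the luminal progenitor, ELF3 is an ETS factor of epithelia, and GRHL2 keeps epithelial junction genes active. FOXC1 and SOX10 are used as markers of basal-like cancers, SOX9 marks progenitors, and TP63 encodes p63, the factor of basal and myoepithelial cells.

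Promoter windows are shown for ELF3, ELF5 and FOXA1, which were upregulated by high glucose in MDA-MB-468, and for TP63, which was downregulated. Each holds the 250 bases before an annotated start in RefSeq (GRCh38.p14), written in the direction of transcription, and 7 of the 10 members had a window. Capitals mark the only matches to 7 words searched on both strands. Factors of the E-box class were represented by the word CACGTG and the forkhead family by TGTTTAC. For ETS proteins the letters GGAAGT were used, for the GRHL family AACCNGTT and for GATA proteins AGATAA. The SOX word was ACAATG and the TATA word was TATAAA.
ELF3, chr1:202010337-202010586, plus strand: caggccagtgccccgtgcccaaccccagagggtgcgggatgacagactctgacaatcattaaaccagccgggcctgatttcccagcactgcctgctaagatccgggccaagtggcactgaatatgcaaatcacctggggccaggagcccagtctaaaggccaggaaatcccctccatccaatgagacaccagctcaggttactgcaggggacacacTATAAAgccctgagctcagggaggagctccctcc
ELF5, chr11:34511725-34511974, minus strand: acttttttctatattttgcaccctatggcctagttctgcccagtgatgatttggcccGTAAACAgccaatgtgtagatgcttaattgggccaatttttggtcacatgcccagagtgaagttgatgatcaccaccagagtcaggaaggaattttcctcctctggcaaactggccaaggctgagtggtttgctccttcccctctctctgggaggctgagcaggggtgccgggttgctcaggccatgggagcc
FOXA1, chr14:37595250-37595499, minus strand: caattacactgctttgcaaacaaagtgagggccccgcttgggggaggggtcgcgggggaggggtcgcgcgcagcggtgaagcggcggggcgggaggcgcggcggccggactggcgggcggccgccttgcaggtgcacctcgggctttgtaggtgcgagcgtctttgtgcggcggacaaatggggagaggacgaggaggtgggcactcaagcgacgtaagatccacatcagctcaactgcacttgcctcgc
TP63, chr3:189631139-189631388, plus strand: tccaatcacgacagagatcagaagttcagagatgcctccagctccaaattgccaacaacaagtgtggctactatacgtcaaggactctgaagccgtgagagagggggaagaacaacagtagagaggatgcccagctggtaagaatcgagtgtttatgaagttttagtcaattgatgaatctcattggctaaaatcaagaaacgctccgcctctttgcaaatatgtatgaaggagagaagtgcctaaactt
In ELF3 the capitals mark TATAAA, 34 to 29 bases before the start. This word was present in 10.7% of 35116 RefSeq windows of this length. It was added to the search after the windows had been seen, so the match is a description only. In ELF5 they mark the forkhead word on the opposite strand, 193 to 187 bases before the start, and 2.98% of windows held it. The windows of FOXA1 and TP63 held none of the 7 words, which says only that these letters are not in these windows. The TP63 window lies before the long (TA) form, and ELF5 has other annotated starts. Counts per gene do not separate the starts. Guanine and cytosine made up 67.2% of the FOXA1 window and 51.6% of the ELF5 window, against a median of 58.0% over all windows.

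The libraries held 14094597 to 24425916 recovered reads, and 3 reads, the floor used below, equalled 0.123 to 0.213 CPM (read counts scaled by the library's total). Values are given as normalized reads, read counts after the authors' scaling by library size factors. The lines differed in identity genes: VIM (vimentin, of mesenchymal cells) averaged 96228 normalized reads in low-glucose MDA-MB-231 against 21.5 in the other line, while CDH1 (E-cadherin, of epithelial cells) averaged 5.51 and 2007. EPCAM, KRT8, KRT18 and EGFR were also higher in MDA-MB-468, ZEB1 was lower, and CDH2 was below the filter on low values. Markers of blood, vessel, stromal and muscle cells were checked as a list of 12, of which 9 could be looked up. Their sum was 144 to 157 CPM across MDA-MB-231 libraries and 3.09 to 5.06 CPM across MDA-MB-468 libraries. Most of the sum in MDA-MB-231 was CD68, a lysosomal gene of macrophages that many cell lines express, at 2279 normalized reads in low glucose, against 34.6 in low-glucose MDA-MB-468. The stromal and muscle genes PDGFRB (206 against 10.3), LUM (63.4 against 0) and ACTA2 (54.7 against under 1) were also higher in low-glucose MDA-MB-231, whereas the fibroblast gene DCN was at 0 in 15 of the 16 libraries. The part of these markers in the line differences was not tested.

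**Figure D1:**
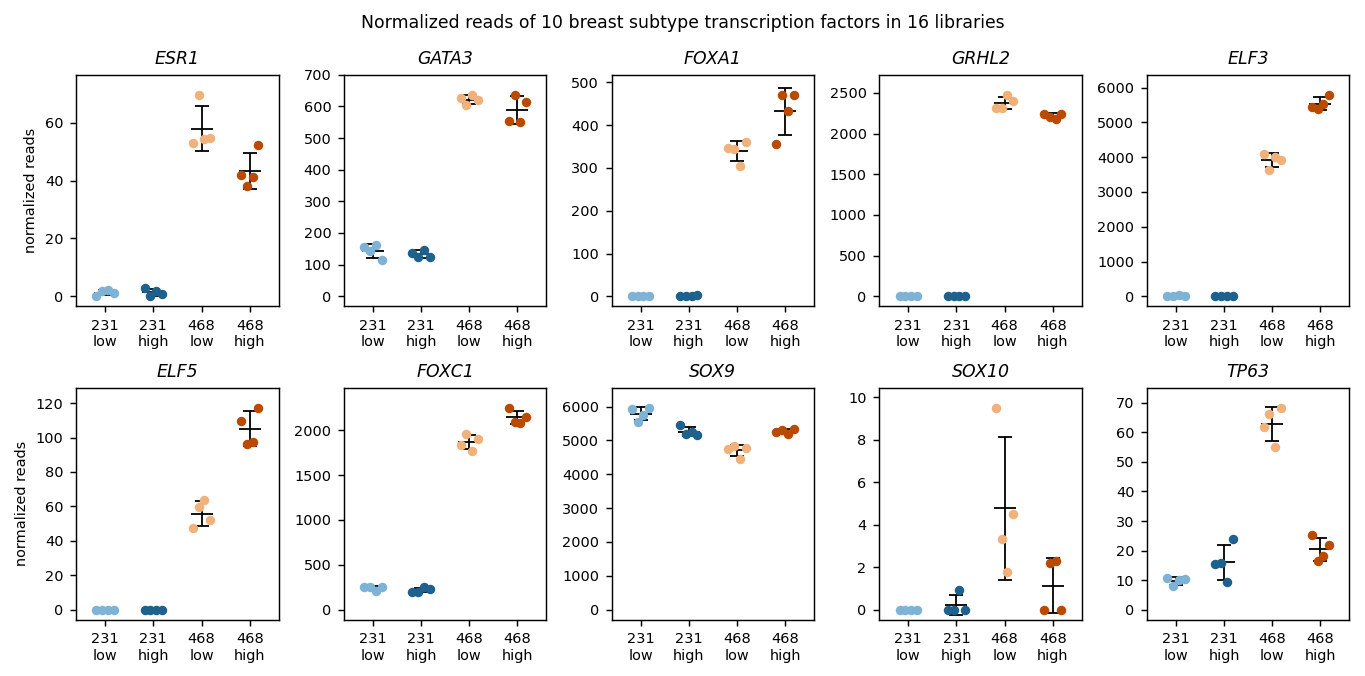
Normalized reads of each factor (y axis, linear, a separate scale per panel) in the 4 groups, MDA-MB-231 and then MDA-MB-468, each with low glucose (5 mM) before high glucose (25 mM). Points are the 4 libraries of a group, and black marks give the mean and SD. FOXA1, GRHL2, ELF3 and ELF5 lie near 0 in all 8 MDA-MB-231 libraries, SOX9 is at 4463 or higher in all 16, and TP63 is highest in low-glucose MDA-MB-468.

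The 10 factors covered very different levels, which were compared between genes as RPKM (CPM divided by the length of the canonical transcript in kilobases). In low-glucose MDA-MB-231, SOX9 was the most abundant with 84.9 ± 2.80 RPKM (SD, n = 4). FOXC1 followed with 3.49 ± 0.313 RPKM, GATA3 with 2.68 ± 0.379, ELF3 with 0.289 ± 0.144 and TP63 with 0.113 ± 0.0147. The remaining 5 (GRHL2, ESR1, FOXA1, ELF5 and SOX10) were below 0.02 RPKM, and their values overlapped from neighbor to neighbor. High glucose kept the order of the first 8, but ELF3 and TP63 then overlapped.

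MDA-MB-468 had a different order. In low glucose ELF3 (80.3 ± 4.29 RPKM) and SOX9 (76.2 ± 2.73 RPKM) overlapped at the top, followed by FOXC1 (29.8 ± 1.27) and GRHL2 (28.9 ± 0.998), which overlapped as well. GATA3 reached 12.8 ± 0.311 RPKM, FOXA1 6.15 ± 0.441, ELF5 1.53 ± 0.201, TP63 0.809 ± 0.0763, ESR1 0.582 ± 0.0774 and SOX10 0.105 ± 0.0737, without overlap between neighbors. In high glucose no neighbors overlapped. ELF3 then stood above SOX9 at 111 ± 2.95 against 83.5 ± 1.28 RPKM, and TP63 had moved below ESR1, at 0.258 ± 0.0489 against 0.427 ± 0.0578 RPKM.

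The first comparison asked how the lines differed at the same glucose level. In low glucose, 9 members were tested (limma, log2 of the value + 1, Benjamini-Hochberg adjustment over all genes, threshold 0.05). Of these, 8 were higher in MDA-MB-468 and SOX9 was lower, against 85.4% of the 17115 genes tested that passed in either direction (45% higher and 40.4% lower). The 4 values of each line did not overlap for all 9, against 80.5% of all genes. In high glucose 7 of 9 were higher, while SOX9 and TP63 did not pass. The background was 85.2% in either direction (44.6% higher and 40.6% lower), and 7 of 9 members did not overlap, against 79.9% of all genes. A call between these lines was the usual outcome for a gene, so the sizes are described. The median difference of the tested members was 4.80 on the log2 scale in low glucose and 4.35 in high glucose. Over all genes it was 0.08 and 0.07, where higher and lower genes offset each other. With the sign dropped, the median over all genes was 0.94 in low and 0.91 in high glucose. With ELF5, which had no reads in MDA-MB-231, set to its bound, the member medians were 4.06 and 4.35. SOX10 was below the filter of 0.5 CPM in 2 or more libraries and was not tested. ESR1, FOXA1, ELF5 and GRHL2 stayed below 0.5 CPM in every MDA-MB-231 library and passed this filter only through MDA-MB-468. Their direction was thus set by the filter, although they enter the counts and medians above. Apart from them, GATA3, FOXC1, ELF3 and TP63 were higher and SOX9 was lower in low glucose. In high glucose GATA3, FOXC1 and ELF3 were higher.

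Of the luminal trio, ESR1 (ENSG00000091831, chromosome 6, 151977826 to 152450754, plus strand, GRCh37) was close to the floor in MDA-MB-231. Its low-glucose values there were 0, 1.96, 2.24 and 1.03 normalized reads in replicates 1 to 4, and its high-glucose values were 2.92, 0, 1.86 and 0.951. MDA-MB-468 had 53.0, 69.7, 54.3 and 54.8 in low glucose and 41.8, 38.2, 41.2 and 52.3 in high glucose. All MDA-MB-468 libraries lay above all MDA-MB-231 libraries, and the level in MDA-MB-468 stayed under 1 RPKM. Over the 4 libraries of each line in low glucose, 253 reads in MDA-MB-468 stood against 5 in MDA-MB-231, a CPM ratio of 54.1 (95% exact interval 22.9 to 168, counting error only). The line difference passed in both media (adjusted p = 2.52e-09 in low and 1.02e-08 in high glucose).

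FOXA1 (ENSG00000129514, chromosome 14, 38058757 to 38065264, minus strand), the pioneer factor of the luminal lineage, had 1 read in the low-glucose MDA-MB-231 libraries together and 3 in the high-glucose ones. The low-glucose MDA-MB-468 libraries held 346, 344, 305 and 361 normalized reads and the high-glucose ones 355, 470, 434 and 471. In reads this was 1499 against 1 in low glucose, a CPM ratio of 1604 with a 95% exact interval from 287 to 63384, so the size is poorly bounded above. The fitted log2 difference of 8.15 ± 0.31 (SE) moved between 5.39 and 10.18 with other pseudocounts and models, and it passed in all of them (adjusted p = 5.50e-14). The values did not overlap between the lines.

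GATA3 (ENSG00000107485, chromosome 10, 8087341 to 8117161, plus strand) was the member of the trio that both lines expressed. In MDA-MB-231 it measured 156, 143, 161 and 114 normalized reads in low glucose and 138, 124, 148 and 124 in high glucose. MDA-MB-468 held 627, 603, 636 and 619 in low and 554, 637, 549 and 614 in high glucose. It was 4.33-fold higher in MDA-MB-468 in low glucose (log2 2.12 ± 0.09 SE, adjusted p = 3.81e-13) and 4.41-fold higher in high glucose (log2 2.13 ± 0.09, adjusted p = 3.52e-13), and the lines did not overlap.

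Among the epithelial factors, GRHL2 (ENSG00000083307, on chromosome 8) showed the sharpest contrast. All 4 low-glucose MDA-MB-231 libraries held 7 reads together, and the 4 high-glucose ones held 6. In MDA-MB-468 the replicates measured 2316, 2316, 2479 and 2398 normalized reads in low glucose and 2241, 2210, 2178 and 2246 in high glucose. The CPM ratio was 1609 in low glucose (95% exact interval 780 to 4002) and 1612 in high glucose (740 to 4394), and both fits passed (adjusted p = 1.14e-12 and 1.07e-12). By the fitted log2 difference of 10.04, 0.543% of the 17115 genes tested differed at least this far between the lines in low glucose. That difference ranged from 7.96 to 10.52 with other pseudocounts and models, so the rank is not firm.

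ELF3 (ENSG00000163435, chromosome 1, 201977073 to 201986311, plus strand) was detected in every library of both lines. MDA-MB-231 had 14.3, 8.81, 26.8 and 12.3 normalized reads in low glucose and 8.76, 11.6, 10.2 and 16.2 in high glucose. MDA-MB-468 had 4105, 3633, 4003 and 3929 in low and 5458, 5388, 5534 and 5798 in high glucose, with no overlap. The ratio of means was 252 in low glucose (log2 7.99 ± 0.22 SE, adjusted p = 7.58e-16) and 475 in high glucose (log2 8.80 ± 0.22, adjusted p = 2.03e-16). ELF3 shares 664 exon bases with ELF3-AS1 on the opposite strand, and whether counting was by strand is not given in the sources used here. ELF3-AS1 averaged 2.38 normalized reads in low-glucose MDA-MB-231 and 173 in the other line.

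ELF5 (ENSG00000135374, chromosome 11, 34500338 to 34546740, minus strand) had 0 reads in all 8 MDA-MB-231 libraries. In MDA-MB-468 it measured 47.4, 59.7, 63.9 and 52.1 normalized reads in low glucose and 110, 96.1, 97.3 and 117 in high glucose. Against a floor of 3 reads per library it was at least 16.6-fold higher in low glucose and at least 33.3-fold higher in high glucose in MDA-MB-468. Its fitted log2 difference in low glucose, 5.82, ranged from 2.99 to 8.86 with the pseudocount and model and is no bound.

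Among the basal-associated factors, FOXC1 (ENSG00000054598, chromosome 6, 1610150 to 1614132, plus strand) measured 247, 254, 210 and 252 normalized reads in low-glucose MDA-MB-231 and 199, 199, 247 and 228 in high glucose. MDA-MB-468 had 1838, 1956, 1773 and 1906 in low and 2249, 2097, 2078 and 2148 in high glucose. FOXC1 was 7.76-fold higher in MDA-MB-468 in low glucose (log2 2.95 ± 0.07 SE, adjusted p = 7.89e-17) and 9.81-fold higher in high glucose (log2 3.29 ± 0.07, adjusted p = 1.80e-17). The lines did not overlap in either medium.

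SOX9 (ENSG00000125398, chromosome 17, 70117161 to 70122557, plus strand) was abundant in both lines. MDA-MB-231 held 5920, 5534, 5748 and 5961 normalized reads in low glucose and 5459, 5192, 5258 and 5152 in high glucose. MDA-MB-468 held 4761, 4833, 4463 and 4782 in low and 5243, 5319, 5206 and 5326 in high glucose. In low glucose every MDA-MB-468 library lay below every MDA-MB-231 library, a difference of -0.30 ± 0.03 (SE) on the log2 scale (adjusted p = 3.53e-08). In high glucose the lines overlapped and the difference was 0.00, with a 95% interval from -0.06 to 0.06 (adjusted p = 0.938). Under quantile rescaling that difference became 0.12 and passed (adjusted p = 0.00155).

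TP63 (ENSG00000073282, chromosome 3, 189349178 to 189615065, plus strand) measured 10.7, 7.83, 10.1 and 10.3 normalized reads in low-glucose MDA-MB-231 and 15.6, 15.8, 9.29 and 23.8 in high glucose. MDA-MB-468 had 61.7, 66.4, 55.1 and 68.3 in low and 25.3, 16.4, 18.3 and 21.9 in high glucose. In low glucose TP63 was 6.47-fold higher in MDA-MB-468 without overlap (log2 2.58 ± 0.23 SE, adjusted p = 7.77e-09). In high glucose the lines overlapped and the difference of 0.38 (95% interval -0.10 to 0.86) did not pass (adjusted p = 0.127). Without replicate 4 of high-glucose MDA-MB-231, the library at 23.8, it became 0.58 and passed (adjusted p = 0.0186), and without replicate 3 of that group, at 9.29, it became 0.16 (adjusted p = 0.472).

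SOX10 (ENSG00000100146, chromosome 22, 38366693 to 38383429, minus strand), a neural crest factor found in many basal-like cancers, was at the edge of detection. MDA-MB-231 had 0 reads in low glucose and 1 in high glucose over 4 libraries each. MDA-MB-468 measured 9.49, 3.32, 1.75 and 4.49 normalized reads in low glucose, 22 reads in all, and 0, 2.18, 2.29 and 0 in high glucose, 4 reads in all. Without the filter on low values its line difference passed in low glucose (adjusted p = 0.000159) and not in high glucose (adjusted p = 0.231). It shares 260 exon bases with POLR2F on the opposite strand, which averaged 772 normalized reads in low-glucose MDA-MB-468 and 371 in low-glucose MDA-MB-231.

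**Figure D2:**
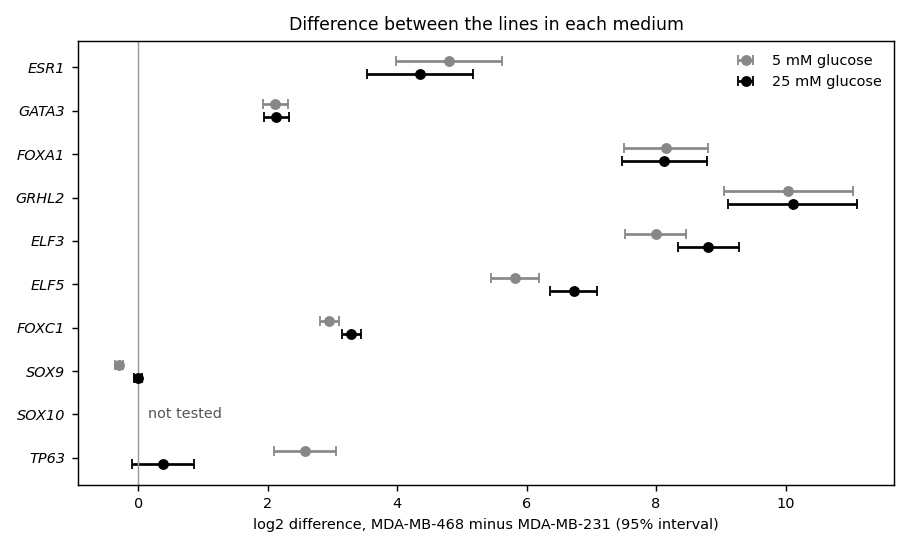
Log2 difference between the lines (x axis, MDA-MB-468 minus MDA-MB-231, on log2 of the normalized reads + 1) for each factor in 5 mM (grey) and 25 mM glucose (black). Points are the fitted differences of 4 against 4 libraries and bars the 95% intervals. SOX9 moves from -0.30 to 0.00 and TP63 from 2.58 to 0.38 between the media, while GRHL2 stays near 10.

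The second comparison asked which factors responded to 48 hours of high glucose in MDA-MB-231. Only SOX9 passed among the 5 members tested, with 15.1% of 14884 genes as background (5.71% higher and 9.37% lower). Quantile rescaling changed that split from 850 higher and 1395 lower to 1027 and 1114. The glucose groups did not overlap for 1 of the 5 members, against 18.7% of all genes. Its 4 high-glucose values lay below its 4 low-glucose values, at 0.909 times the low-glucose mean. The change was -0.14 ± 0.03 (SE) on the log2 scale (adjusted p = 0.00690). It passed in all 17 alternatives, with values from -0.16 to -0.10.

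GATA3 (log2 -0.10, 95% interval -0.33 to 0.14), FOXC1 (-0.14, -0.33 to 0.04), ELF3 (-0.31, -1.04 to 0.42) and TP63 (0.61, -0.07 to 1.30) did not pass, and their glucose groups overlapped. ELF3 and TP63 had the widest intervals of the 5, with all values between 7.83 and 26.8 normalized reads. ESR1, FOXA1, ELF5, GRHL2 and SOX10 were below the filter, so a glucose response of these was not detectable at this depth. The median change of the 5 tested members was -0.14, beside 0.00 over all genes (0.10 with the sign dropped).

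MDA-MB-468 showed more responses. Of 9 members tested, 5 were upregulated (FOXA1, FOXC1, SOX9, ELF3 and ELF5), 3 were downregulated (ESR1, GRHL2 and TP63) and GATA3 did not pass. The background was high as well, since 47.6% of 15757 genes passed, 24.9% upward and 22.7% downward. The glucose groups did not overlap for 7 of the 9, against 42.5% of all genes tested. The median change was 0.16 on the log2 scale, beside 0.00 over all genes (0.21 with the sign dropped).

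TP63 had the largest change of the set. It dropped from a mean of 62.9 ± 5.84 to 20.5 ± 3.94 normalized reads (SD, n = 4), to 0.326 times its low-glucose level, and no high-glucose library came above 25.3. The log2 change was -1.59 ± 0.18 (SE, adjusted p = 2.59e-06), and it passed in all 16 alternatives with values from -1.69 to -1.32. ELF5, the luminal progenitor factor, changed most upward, from 55.8 ± 7.40 to 105 ± 10.2 normalized reads or 1.88-fold (log2 0.91 ± 0.13 SE, adjusted p = 2.72e-05).

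ELF3 rose from 3918 ± 203 to 5544 ± 179 normalized reads, 1.42-fold (log2 0.50 ± 0.04 SE, adjusted p = 1.60e-08). The opposite-strand ELF3-AS1 averaged 173 and 197 normalized reads and did not pass (log2 0.18 ± 0.08, adjusted p = 0.0634). FOXA1 rose 1.28-fold (log2 0.34 ± 0.08 SE, adjusted p = 0.00280) although its groups overlapped, since high-glucose replicate 1 at 355 lay below low-glucose replicate 4 at 361. FOXC1 rose 1.15-fold (log2 0.20 ± 0.04, adjusted p = 0.000463) and SOX9 1.12-fold (log2 0.16 ± 0.03, adjusted p = 0.000306), both without overlap. These 5 upward calls passed in every alternative run.

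The other downward calls were small and less firm. ESR1 averaged 57.9 ± 7.87 normalized reads in low and 43.4 ± 6.13 in high glucose, and its groups did not overlap by a narrow margin, with 52.3 as the highest high-glucose and 53.0 as the lowest low-glucose value. The log2 change of -0.41 ± 0.16 (SE) passed with an adjusted p of 0.0418 but failed in 11 of 16 alternatives, where adjusted p ranged up to 0.133. Without low-glucose replicate 2, the library at 69.7, the change was -0.32 (adjusted p = 0.133). It was also lost without low-glucose replicate 3 or 4 or high-glucose replicate 1, 2 or 3, with values from -0.44 to -0.35 and adjusted p from 0.0562 to 0.0960. GRHL2 fell by 0.10 on the log2 scale (SE 0.03, adjusted p = 0.0207), to 0.933 times its low-glucose level. It failed without low-glucose replicate 3 (-0.08, adjusted p = 0.0830), without low-glucose replicate 4 (-0.09, adjusted p = 0.0504) or without high-glucose replicate 3 (-0.09, adjusted p = 0.0590). GATA3 changed by -0.08 with a 95% interval from -0.20 to 0.04 (adjusted p = 0.243). SOX10 went from 22 to 4 reads and passed only when the filter was dropped (log2 -1.51 ± 0.55, adjusted p = 0.0401).

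**Figure D3:**
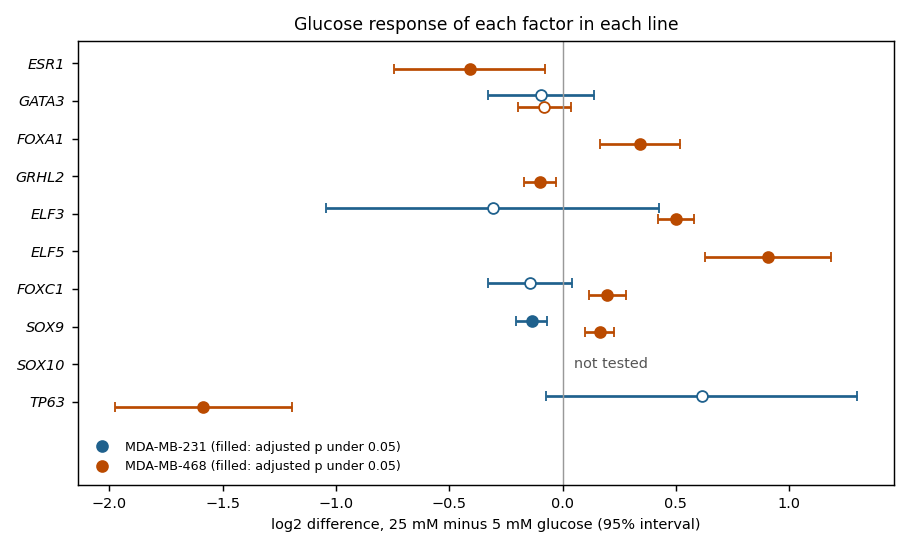
Glucose response of each factor (x axis, log2 difference of 25 mM minus 5 mM glucose, on normalized reads + 1) in MDA-MB-231 (blue) and MDA-MB-468 (orange), with 95% intervals from 4 against 4 libraries. Filled points passed the threshold. In MDA-MB-468 TP63 lies at -1.59 and ELF5 at 0.91, and SOX9 has filled points on both sides of 0.

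The third comparison asked whether the glucose responses differed between the lines, as the interaction term of a model over all 16 libraries. It passed for 4 of the 9 members tested, against 30.9% of 17115 genes (17% higher and 13.9% lower). ELF5 is among these, although its response could not be measured in MDA-MB-231. For TP63 the response was lower in MDA-MB-468 by 2.20 ± 0.32 on the log2 scale (SE, adjusted p = 5.34e-05), and it passed in all 24 alternatives. SOX9 was downregulated in MDA-MB-231 and upregulated in MDA-MB-468, a difference of 0.30 ± 0.04 (adjusted p = 3.04e-05) that passed in all 25 alternatives. FOXC1 differed by 0.34 ± 0.10 (adjusted p = 0.0147), with a change in MDA-MB-231 that had not passed alone.

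ELF5 passed with 0.91 ± 0.25 (adjusted p = 0.00937). Since MDA-MB-231 had no ELF5 reads, this equals the MDA-MB-468 response, and edgeR and DESeq2, which model counts, did not call it (adjusted p = 0.9999 and 0.715). ELF3 differed by 0.81 ± 0.32 and did not pass (adjusted p = 0.0625), but 6 of 25 alternatives called it, among them edgeR (0.87, adjusted p = 0.0417) and DESeq2 (0.88, adjusted p = 0.00730). It also passed without replicate 2 of low-glucose MDA-MB-231 (1.03, adjusted p = 0.0103) or without replicate 4 of high-glucose MDA-MB-231 (0.97, adjusted p = 0.0261). Without replicate 3 of low-glucose MDA-MB-231, the library at 26.8, it dropped to 0.53 and did not pass (adjusted p = 0.0791). For ESR1, GATA3, FOXA1 and GRHL2 the difference passed neither in the main model nor in any alternative. The 95% intervals of ESR1 (-1.61 to 0.71), FOXA1 (-0.95 to 0.90) and GRHL2 (-1.35 to 1.48) were wide, and MDA-MB-231 held few reads of these genes.

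Close relatives of the factors were examined to see which family members each line used. Like GRHL2, GRHL1 and GRHL3 were higher in MDA-MB-468 than in MDA-MB-231: GRHL1 averaged 995 normalized reads in low-glucose MDA-MB-468 against 8.71 in the other line (log2 6.79 ± 0.21 SE, adjusted p = 3.65e-15), and GRHL3 averaged 260 against 1.54 (log2 6.86 ± 0.30, adjusted p = 4.21e-13). With glucose they moved the other way from GRHL2 in MDA-MB-468. GRHL1 rose to 1293 (log2 0.38 ± 0.04, adjusted p = 2.70e-06) and GRHL3 to 355 (log2 0.44 ± 0.08, adjusted p = 0.000412), while GRHL2 fell slightly as described above.

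The forkhead genes FOXA1 and FOXA2 were split between the lines. FOXA2, a pioneer factor best known from endoderm and liver, averaged 996 ± 25.9 normalized reads in low-glucose MDA-MB-231 and 1035 ± 55.8 in high glucose, and had 0 reads in all 8 MDA-MB-468 libraries. FOXA1 showed the reverse pattern, with 4 reads over the 8 MDA-MB-231 libraries. Of the epithelial ETS factors, SPDEF was expressed in both lines and rose with glucose in both, from 1678 to 2030 normalized reads in MDA-MB-231 (log2 0.28 ± 0.06 SE, adjusted p = 0.00262). In MDA-MB-468 its mean went up from 1180 to 1701 (log2 0.53 ± 0.05, adjusted p = 1.03e-07). EHF, named after its values were seen, averaged 657 and 7537 in low glucose. Of the p53 family, TP73 fell from 134 to 79.1 normalized reads in MDA-MB-231 (log2 -0.75 ± 0.12 SE, adjusted p = 0.000199), the line in which TP63 did not pass.

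**Figure D4:**
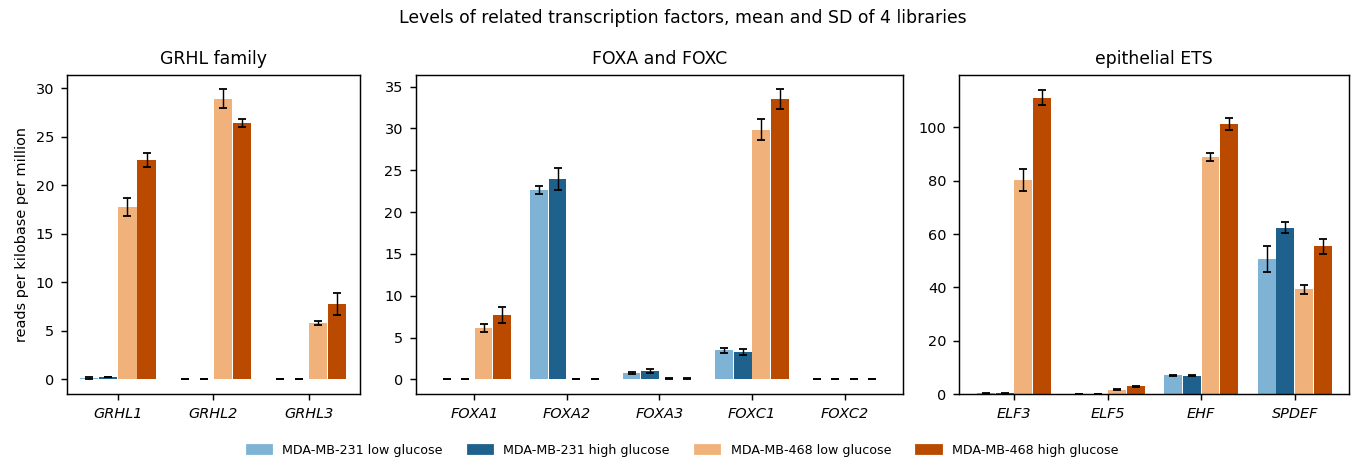
Levels of the GRHL, forkhead and epithelial ETS factors in RPKM (y axis, linear, bars start at 0, one scale per panel), as mean and SD of the 4 libraries of each group. The 3 GRHL genes and FOXA1 are higher in MDA-MB-468, FOXA2 is higher in MDA-MB-231, and SPDEF appears in both lines.

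Over the 18 relatives listed, 14 were tested between the lines, with 6 higher and 8 lower in low-glucose MDA-MB-468 (median log2 -0.39), against 45% and 40.4% of all genes. Glucose changed 1 upward and 1 downward of 13 tested in MDA-MB-231 (median 0.00), against 5.71% higher and 9.37% lower of all genes. In MDA-MB-468 it changed 6 upward and 2 downward of 11 (median 0.13), against 24.9% and 22.7% of all genes. Among 28 other mammary transcription factors, 16 of 24 tested were higher and 7 lower in low-glucose MDA-MB-468 (median 1.06), beside the same background shares. SOX11, with 0 reads in all 8 MDA-MB-231 libraries, averaged 783 normalized reads in low-glucose MDA-MB-468, at least 234-fold higher. The mesenchymal repressors ZEB1 (1637 against 2.84) and SNAI2 (381 against 0) were higher in MDA-MB-231. With glucose 3 rose and 3 fell of 20 in MDA-MB-231 (median -0.09, the same background), among them SNAI2 (-0.38 ± 0.07, adjusted p = 0.00179). In MDA-MB-468 8 rose and 5 fell of 20 (median 0.02, the same background), with ID4, a regulator found in basal cells, falling from 302 to 165 normalized reads (log2 -0.87 ± 0.08, adjusted p = 2.71e-07).

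Genes that depend on GRHL and ETS factors in epithelia were read from a list of 26. In MDA-MB-468 25 were higher and 1 was lower in low glucose, against 45% and 40.4% of all genes. The median log2 difference was 4.33, beside 0.08 for all genes (0.94 with the sign dropped). Within MDA-MB-231, 20 of the 26 passed the filter on low values. The rest entered the line comparison mainly through MDA-MB-468, which largely set their direction. RAB25, a vesicle trafficking gene, had 1947 normalized reads against 0 in MDA-MB-231 (at least 581-fold higher), and the protease gene PRSS8 had 1668 against 0.245. With glucose 16 of 26 rose and none fell in MDA-MB-468 (median 0.15), against 24.9% and 22.7% of all genes. OVOL2, a zinc finger repressor of mesenchymal genes, rose from 85.4 to 114 normalized reads (log2 0.42 ± 0.10 SE, adjusted p = 0.00293), and ELMO3 rose from 395 to 557 (log2 0.50 ± 0.08, adjusted p = 0.000114). In MDA-MB-231 7 of 20 rose and none fell (median 0.20), against 5.71% higher and 9.37% lower of all genes, with MAL2 rising from 298 to 477 (log2 0.67 ± 0.06, adjusted p = 1.25e-06).

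Luminal genes linked to ESR1, FOXA1 and GATA3 were mixed. Of 26 listed, 21 were tested between the lines, and 13 were higher and 7 lower in low-glucose MDA-MB-468 (median 1.05), against 45% and 40.4% of all genes. With glucose 11 of 18 rose and 4 fell in MDA-MB-468 (median 0.20), against 24.9% and 22.7% of all genes. The estrogen-responsive gene GREB1 fell from 135 ± 6.91 to 25.8 ± 4.40 normalized reads (log2 -2.35 ± 0.14 SE, adjusted p = 1.87e-09) and STC2 from 2733 to 1766 (log2 -0.63 ± 0.04, adjusted p = 6.74e-10). MLPH, a melanosome transport gene of luminal tumors, rose from 1024 to 1596 (log2 0.64 ± 0.04, adjusted p = 7.72e-10). In MDA-MB-231 5 of 20 rose and 1 fell (median 0.02), against 5.71% higher and 9.37% lower of all genes, with AGR2 rising from 1424 to 1988 (log2 0.48 ± 0.04, adjusted p = 3.44e-07).

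Basal markers were higher in MDA-MB-468 for 21 of 25 and lower for 3 in low glucose (median 5.88, or 4.69 with genes at 0 in MDA-MB-231 set to their bound), against 45% and 40.4% of all genes. Only 12 of the 25 passed the filter on low values within MDA-MB-231. The others entered the line comparison mainly through MDA-MB-468, so the direction of their calls was largely set by the filter. The basal keratin KRT5 averaged 15150 against 1.13 normalized reads. High glucose raised 17 of 25 and lowered 3 in MDA-MB-468 (median 0.31), against 24.9% and 22.7% of all genes. GABRP went from 412 to 1068 normalized reads (log2 1.38 ± 0.07 SE, adjusted p = 1.16e-10), the keratin KRT6B from 433 to 1030 (log2 1.25 ± 0.05, adjusted p = 1.62e-11) and the protease KLK5 from 3032 to 6365 (log2 1.07 ± 0.04, adjusted p = 3.83e-12). In MDA-MB-231 1 of 12 rose and 3 fell (median 0.06), against 5.71% higher and 9.37% lower of all genes.

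Of 20 genes known as p63 targets, 18 were tested with glucose in MDA-MB-468, and 12 rose and 2 fell (median 0.27), against 24.9% and 22.7% of all genes. The gene lists share some members, such as KRT5 among both basal markers and p63 targets, so their counts are not separate results. KRT14 rose from 1088 to 1881 normalized reads (log2 0.79 ± 0.04 SE, adjusted p = 1.09e-10) and TRIM29 from 4534 to 6873 (log2 0.60 ± 0.03, adjusted p = 6.69e-10). CDKN1A, which encodes the cell cycle inhibitor p21 and is also a p53 target, rose from 547 to 971 in MDA-MB-468 (log2 0.83 ± 0.06, adjusted p = 1.97e-08). The same gene fell in MDA-MB-231, where its means were 3503 and 3067 (log2 -0.19 ± 0.03, adjusted p = 0.000811). In MDA-MB-231 none of 13 rose and 4 fell (median 0.03), against 5.71% higher and 9.37% lower of all genes. Between the lines 16 of 19 were higher and 3 lower in low-glucose MDA-MB-468 (median 3.03), against 45% and 40.4% of all genes. Of these 19, 13 passed the filter on low values within MDA-MB-231. The rest entered mainly through MDA-MB-468, which largely set their direction.

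Of 20 genes linked to SOX9 and SOX10 in cartilage and glia, 12 were tested between the lines, with 5 higher and 6 lower in low-glucose MDA-MB-468 (median -0.15), against 45% and 40.4% of all genes. NES, an intermediate filament of progenitor cells, averaged 1763 normalized reads in MDA-MB-231 against 53.5 in the other line. With glucose 1 of 10 rose and 1 fell in MDA-MB-231 (median 0.12), against 5.71% higher and 9.37% lower of all genes. In MDA-MB-468 4 of 9 rose and 1 fell (median 0.21), against 24.9% and 22.7% of all genes.

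For each member called with glucose and above 5 CPM, the 2 genes with the most similar profile over the 8 libraries of that line were read off, as a description. ELF3 was most like MGAT4B (Pearson r = 0.9996) and TMEM129 (0.999) in MDA-MB-468, and SOX9 was most like GSDMC (0.997) and CLUAP1 (0.988). FOXC1 was most like MALL (0.988) and CLNS1A (0.982), FOXA1 like DAPK1 (0.987) and SLC37A3 (0.969), ELF5 like HSD17B4 (0.992) and TOMM7 (0.990), and GRHL2 like FGFR2 (0.979) and ZNF16 (0.972). In MDA-MB-231 SOX9 was most like ASH2L (0.986) and WNK1 (0.986). These values were picked as the highest of 11188 genes in MDA-MB-468 and 10739 in MDA-MB-231, and all points share the division into 2 glucose groups.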

How the data were processed

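RNA sequencing of 16 libraries was analyzed. The study's methods describe trimming with Trimmomatic and alignment with TopHat to hg19 for the tumors, and state no separate alignment for the cell lines. The submitters' processing notes name hg38 and edgeR. The authors' counts are per Ensembl gene. The counting program and its use of strand are not given in the sources used here. The deposited values are a normalized signal, read counts that the authors divided by 1 size factor per library. Whole reads were recovered for 100% of the values (tolerance 0.001 of a read). Depth ranged from 14094597 to 24425916 reads, and intervals and the floor of 3 reads cover counting error only.

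Symbols were found for 16633 of the 18332 IDs in a GENCODE annotation lifted to GRCh37, which also gave positions. Promoters came from RefSeq (GRCh38.p14), and the TATA word was added after the windows had been seen. A gene was tested if 2 or more of the fitted libraries reached 0.5 CPM. Tests were run with limma 3.58.1 (R 4.3.3; lmFit, eBayes with trend, two-sided) on log2(value + 1). Such changes are understated for low genes. Benjamini-Hochberg adjustment ran over all genes tested, with a threshold of 0.05. Glucose responses were fitted within the 8 libraries of a line. Line differences and the interaction came from a model of 4 group means. Alternatives were pseudocounts of 0.5 and 8, other filters, TMM and quantile rescaling, edgeR 4.0.16 (quasi-likelihood) and DESeq2 1.42.0 on recovered reads, a replicate block, and leaving out each library. The fits were tested on simulated data.

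The members and gene lists were chosen with earlier results of these data known. The text names the 10 members, line markers, and per list and comparison up to 3 genes with the largest change among those past the threshold whose groups did not overlap and whose higher mean reached 5 CPM. CD68, PDGFRB, LUM, ACTA2, MYH11, VWF, PTPRC, DCN, EHF, POLR2F and ELF3-AS1 were named after their values had been seen. Some genes that the rule selects are not reported here. It also names the 2 most similar genes per member called with glucose.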

Additional observations from a re-analysis of the deposited data

Results flagged for a closer look

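In low-glucose MDA-MB-468, ESR1 was 69.7 normalized reads in replicate 2, far from the other libraries (53.0, 54.3 and 54.8). FOXC1 was 210 normalized reads in replicate 3 of low-glucose MDA-MB-231, apart from 247, 252 and 254. These were the only ones that stood apart among 30 groups of 4 values examined, and chance alone marks about 1 in 20.

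The interaction term passed for 4 members, although for ELF5 no glucose response could be measured in MDA-MB-231. For TP63 it was -2.20 on the log2 scale, from 0.61 in MDA-MB-231, which did not pass alone, and -1.59 in MDA-MB-468. For SOX9 it was 0.30, from -0.14 and 0.16. FOXC1 differed by 0.34, from -0.14 (not passed) and 0.20. The ELF5 term of 0.91 is only its response in MDA-MB-468, because MDA-MB-231 held no reads, so it does not compare 2 measured responses.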

How the results depend on the processing

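No called result changed direction. Among results that did not pass, the sign varied between alternatives for SOX9 between lines in high glucose (-0.03 to 0.12) and for the interaction of FOXA1 (-0.99 to 0.28), GRHL2 (-0.31 to 0.46) and GATA3 (-0.04 to 0.12). Of 901 refits of member results, 876 kept their call, 17 lost it and 8 gained it. The losses were those of ESR1 and GRHL2 with glucose in MDA-MB-468, FOXC1 in the interaction under the replicate block (adjusted p = 0.0526, beside 0.0147 without it), and ELF5 in the interaction under edgeR and DESeq2. The gains were ELF3 in the interaction, SOX9 between lines in high glucose under quantile rescaling and TP63 there without 1 library. The cause was not tested. Leaving out 1 library gave 6 to 8 members called with glucose in MDA-MB-468, beside 8. Replicate numbers do not pair the samples: correlations of same-numbered deviations lay between -0.034 and -0.011 in MDA-MB-231 and between 0.019 and 0.031 in MDA-MB-468. With the replicate block, all genes called with glucose were 1624 instead of 2245 in MDA-MB-231 and 7383 instead of 7495 in MDA-MB-468, ESR1 was lost in MDA-MB-468 (adjusted p = 0.0588), and apart from FOXC1 no other member call changed. Depth limits ESR1, FOXA1, ELF5, GRHL2 and SOX10 in MDA-MB-231, where most libraries hold 3 reads or fewer.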
